A study of Homo sapiens with 12 samples.

Results

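The genes described here make cholesterol, bring it into the cell and pass it on, or control the sterol-sensing transcription factor SREBP2. They are 28 protein-coding genes, chosen by symbol from a fixed list, and all 28 were found once in each of the deposited tables, among 13554 genes listed for a GPD1L knockdown and 13583 listed for a GPD1L overexpression. Poly(A) RNA was sequenced from stably transfected SW480 cells, which derive from a human colon adenocarcinoma. Cells carrying a hairpin that targets GPD1L (shGPD1L) were set against cells carrying a control hairpin (shNC), and cells that overexpress GPD1L (OE) against cells with the vector (Vector), with 3 libraries in each of the 4 groups. The labels give neither clone or pool for a line nor separate cultures for its libraries. The p-values therefore cover only how far these libraries differ among themselves, a spread that may be technical. GPD1L encodes a relative of the cytosolic glycerol-3-phosphate dehydrogenase.

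Cholesterol is built from acetyl-CoA. The early enzymes form mevalonate and activate it, the isoprenoid enzymes join the resulting units into farnesyl and geranylgeranyl diphosphate, the squalene enzymes commit the chain to sterols and close the rings, and a last set of enzymes in the endoplasmic reticulum trims lanosterol to cholesterol. SREBP2, the product of SREBF2, is kept in the endoplasmic reticulum by SCAP and INSIG proteins while sterol is plentiful. When sterol falls, SCAP carries SREBP2 to the Golgi, where the proteases encoded by MBTPS1 and MBTPS2 release the part that enters the nucleus and activates genes of sterol synthesis, INSIG1 and SREBF2 itself among them. Dividing tumour cells use the pathway for membranes, and its isoprenoid branch supplies lipid anchors of proteins and coenzyme Q.

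Values are FPKM, fragments scaled to the length of the transcript and to the size of the library, so levels can be compared between genes. How many reads stand behind a value is unknown. Each change is a difference between group means of log2(FPKM + 1), a scale on which the change of a gene with low FPKM comes out too small. They were tested with limma on every gene with a mean of at least 1 FPKM, and a gene is called where its Benjamini-Hochberg adjusted p over all genes tested is under 0.05. The targeted gene went with its labels. GPD1L was at 1.55, 1.26 and 2.23 FPKM in shGPD1L libraries, against 8.68, 8.01 and 9.10 FPKM in shNC libraries (log2 change -1.85, SE 0.14, adjusted p = 0.00675; without any 1 shNC library the adjusted p was 0.0522 to 0.0835). It was at 22.3, 22.8 and 22.1 FPKM in OE libraries, against 10.7, 10.2 and 11.1 FPKM in Vector libraries (log2 change 1.01, SE 0.052, adjusted p = 4.74e-05). The epithelial marker EPCAM was abundant, at 177 to 203 FPKM in the knockdown table and at 290 to 344 FPKM in the overexpression table. KRT20 was not listed in the knockdown table and was at 0.37 to 1.32 FPKM in the overexpression table. PTPRC, CD3E and CD79A of the immune list and every gene of the endothelial, erythroid and hepatocyte lists were not listed. CD68 of the immune list was at 17.6 to 29.3 FPKM in the knockdown table and at 15.3 to 18.5 FPKM in the overexpression table. Of the stromal list only COL1A1 and PDGFRB were listed, at 0.32 to 1.46 FPKM over both tables. On the first principal component of the knockdown table shGPD1L replicate 3 was at 29.1, and the other 5 libraries were between -12.1 and 0.32.

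Raising GPD1L went with lower transcript levels of some genes of the sterol pathway. Of the 28 genes, 7 fell and 0 rose in OE against Vector. The 7 were the mevalonate kinase gene MVK, the isomerase gene IDI1, the squalene synthase gene FDFT1, the squalene epoxidase gene SQLE, the lanosterol synthase gene LSS, the dehydrocholesterol reductase gene DHCR7 and the sterol-sensing anchor gene INSIG1. Over all 12208 genes tested, 10.3% were called lower and 12.2% higher, together 22.4%. The members were thus called in either direction at about the rate of all genes, and every call among them was lower. The log2 changes of the 7 ran from -0.45 to -0.19, and the median over all 28 was -0.12, against 0.02 over all genes tested. An unadjusted limma p under 0.05 was reached by 12 members (37.9% of all genes), by 11 in the lower direction (16.5%) and by 1 in the higher direction (21.4%). The groups did not overlap for 13 members that were lower in OE (17.6% of all genes) and 3 that were higher (24.2%). Of all called genes 54.2% were higher, or 71.5% with library totals set equal, 46.1% with median-of-ratios scaling and 49.6% with quantile normalization. Under those 3 scalings the members called lower numbered 5, 9 and 7. The calls over all genes, in either direction, then numbered 3416, 2717 and 2563, against 2740 without scaling.

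The steps from farnesyl diphosphate to lanosterol moved together: all 3 of their genes fell. LSS, which closes the sterol rings, was at 13.0, 13.6 and 14.3 FPKM in OE libraries, against 18.4, 19.5 and 17.9 FPKM in Vector libraries. Every OE library lay below every Vector library, and the log2 change was -0.42 (SE 0.058, adjusted p = 0.0025). SQLE, an oxygen-requiring step of the pathway, was at 8.34, 7.38 and 8.34 FPKM in OE libraries and at 10.4, 11.2 and 11.4 FPKM in Vector libraries. Its groups did not overlap either, with a log2 change of -0.41 (SE 0.068, adjusted p = 0.00542). FDFT1, which joins farnesyl diphosphate into squalene, was at 44.4, 46.2 and 47.4 FPKM in OE libraries, against 50.3, 52.8 and 55.2 FPKM in Vector libraries. The groups were again separate, but the change was smaller, at -0.19 (SE 0.050, adjusted p = 0.0286). Its call ended with library totals set equal (adjusted p = 0.0646), with eBayes without a trend (0.0545), and without Vector replicate 2 (0.0795) or 3 (0.0782) or OE replicate 1 (0.0753) or 2 (0.0704).

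Of the isoprenoid genes 1 of 3 fell. IDI1, which balances the isomers of isopentenyl diphosphate, was at 21.6, 21.5 and 21.6 FPKM in OE libraries, against 26.9, 28.8 and 24.5 FPKM in Vector libraries. The OE libraries were nearly equal and all below the Vector libraries (log2 change -0.30, SE 0.062, adjusted p = 0.0125). FDPS, the farnesyl diphosphate synthase gene and the most abundant of the 28 by FPKM, was at 82.9, 91.0 and 93.2 FPKM in OE libraries and at 103, 99.1 and 96.7 FPKM in Vector libraries. It missed the threshold (log2 change -0.16, SE 0.054, adjusted p = 0.0607) and passed it with median-of-ratios scaling (adjusted p = 0.035). GGPS1, whose product makes the longer chain that anchors Rab proteins, was at 17.1, 16.5 and 17.1 FPKM in OE libraries and at 14.5, 14.7 and 16.5 FPKM in Vector libraries. The lowest OE library lay just over the highest Vector library (log2 change 0.15, adjusted p = 0.118). GGPS1 shares exonic sequence with TBCE on the same strand and ARID4B on the other, so part of its reads may not be its own. ARID4B rose (log2 change 0.38, adjusted p = 0.00694). The entries of TBCE were below 0 and not called (log2 changes -0.14, adjusted p = 0.161, and -0.96, adjusted p = 0.0858). The part of the overlap in the GGPS1 value was not tested. With library totals set equal GGPS1 was called higher, at 0.19 (adjusted p = 0.045).

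Of the 5 early mevalonate genes 1 fell. MVK was at 3.37, 3.44 and 4.16 FPKM in OE libraries, against 4.44, 5.05 and 4.54 FPKM in Vector libraries, the lowest levels among the 28 in both groups. The groups did not overlap and the log2 change was -0.29 (SE 0.089), but at an adjusted p of 0.0496 the call ended in 9 of the 15 alternatives that gave a value, among them the omission of any 1 library other than OE replicate 3 (0.0799 to 0.148). MVK shares exonic sequence with MMAB on the other strand, which was at 5.94 ± 1.71 FPKM in OE and 7.03 ± 1.30 FPKM in Vector (SD, n = 3 each; adjusted p = 0.386). PMVK, the next kinase, was at 13.0, 14.8 and 13.7 FPKM in OE libraries and at 15.5, 15.7 and 14.4 FPKM in Vector libraries, which overlap (log2 change -0.13, adjusted p = 0.184). HMGCS1, the synthase of the pathway's first branched intermediate, was lower in every OE library without passing the test (log2 change -0.16, adjusted p = 0.123). ACAT2 and MVD, at the start and end of this stretch, had log2 changes of 0.00 and 0.04. ACAT2, at 8.42 FPKM in OE and 8.39 FPKM in Vector, shares exonic sequence with TCP1 on the other strand. TCP1 was at 92.7 ± 2.90 FPKM in OE and 90.7 ± 4.55 FPKM in Vector (SD, n = 3 each), so part of the ACAT2 reads may not be its own.

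Of the 9 genes that turn lanosterol into cholesterol, 1 fell, DHCR7, a reductase at the end of the route. It was at 17.2, 18.7 and 19.1 FPKM in OE libraries, against 22.9, 26.7 and 22.0 FPKM in Vector libraries. All OE libraries lay below all Vector libraries (log2 change -0.36, SE 0.078, adjusted p = 0.0144). The other 8 had log2 changes from -0.14 for NSDHL, a dehydrogenase of the demethylation steps, to 0.16 for the desaturase gene SC5D, and none was called. The sterol reductase gene TM7SF2 was at 30.1, 34.1 and 30.0 FPKM in OE libraries and at 31.3, 31.7 and 28.98 FPKM in Vector libraries, which overlap, and the lanosterol demethylase gene CYP51A1 averaged 27.8 ± 1.02 FPKM in OE and 27.1 ± 1.72 FPKM in Vector (SD, n = 3 each). The 7 called genes were therefore spread over the pathway and did not include most of its last stretch.

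Among the control genes, INSIG1 had the largest change of the 28. It was at 15.9, 17.0 and 17.8 FPKM in OE libraries, against 22.0, 26.5 and 22.3 FPKM in Vector libraries. The groups were separate and the log2 change was -0.45 (SE 0.078, adjusted p = 0.00617). SREBF2 itself was at 23.2, 25.0 and 26.2 FPKM in OE libraries and at 28.2, 28.5 and 26.4 FPKM in Vector libraries. These groups were also separate, but the gene missed the threshold (log2 change -0.15, SE 0.059, adjusted p = 0.0938). SCAP, the escort of SREBP2, was at 21.8, 23.3 and 24.3 FPKM in OE libraries and at 22.8, 22.7 and 21.5 FPKM in Vector libraries, which overlap (log2 change 0.04, adjusted p = 0.598). The protease genes MBTPS1 and MBTPS2 had log2 changes of 0.01 and 0.14 and were not called. None of the 3 uptake, transfer and storage genes was called. STARD4, a sterol transfer protein gene, came closest, at 9.63, 8.79 and 8.51 FPKM in OE libraries, against 11.7, 10.8 and 9.63 FPKM in Vector libraries (log2 change -0.23, SE 0.080, adjusted p = 0.0702). The highest OE library lay just under the lowest Vector library. It was called lower with median-of-ratios scaling (adjusted p = 0.048), with quantile normalization (0.0407) and without Vector replicate 3 (0.0384). LRP8, a lipoprotein receptor gene, was at 11.4, 11.4 and 10.9 FPKM in OE libraries and at 12.5, 12.4 and 11.9 FPKM in Vector libraries, without overlap (log2 change -0.12, adjusted p = 0.149). SOAT1, whose product esterifies cholesterol for storage, had a log2 change of -0.05.

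IDI1, SQLE, LSS, DHCR7 and INSIG1 were called lower in all 16 alternatives. In GENCODE release 29 (GRCh38), LSS is ENSG00000160285 at chr21:46188141-46228824, IDI1 is ENSG00000067064 at chr10:1039152-1049170, INSIG1 is ENSG00000186480 at chr7:155297776-155310235 and DHCR7 is ENSG00000172893 at chr11:71428193-71452868. Over those settings the adjusted p-values of the 5 ran from 0.00156 to 0.0461. Transcripts of the mitochondrial genome took 14.2% to 16.0% of the listed FPKM in OE libraries and 15.8% to 17.4% in Vector libraries, and the summed immune list, of which only CD14 and CD68 were listed, was at 18.4 to 19.5 FPKM in OE libraries and 17.3 to 19.7 FPKM in Vector libraries. Within it CD14 was lower without overlap, at 0.63 to 1.04 FPKM in OE libraries and 1.64 to 2.07 FPKM in Vector libraries, and CD68 overlapped, at 17.8 to 18.5 FPKM in OE libraries and 15.3 to 18.0 FPKM in Vector libraries. The summed epithelial list, with 8 of 8 genes listed, was at 4137 to 4267 FPKM in OE libraries and 3775 to 3883 FPKM in Vector libraries, a sum made almost wholly of the keratins KRT8, KRT18 and KRT19. The other 5 epithelial markers were lower in OE without overlap. EPCAM was at 290 to 307 FPKM in OE libraries and 343 to 344 FPKM in Vector libraries, and CDH1 at 69.6 to 71.6 FPKM in OE libraries and 86.6 to 88.3 FPKM in Vector libraries. CDX2 was at 13.8 to 15.2 FPKM in OE libraries and 19.9 to 24.3 FPKM in Vector libraries, VIL1 at 31.5 to 32.7 FPKM in OE libraries and 46.2 to 46.8 FPKM in Vector libraries, and KRT20 at 0.37 to 0.63 FPKM in OE libraries and 1.23 to 1.32 FPKM in Vector libraries. The part of these shares and lists in the results was not tested.

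**Figure D1:**
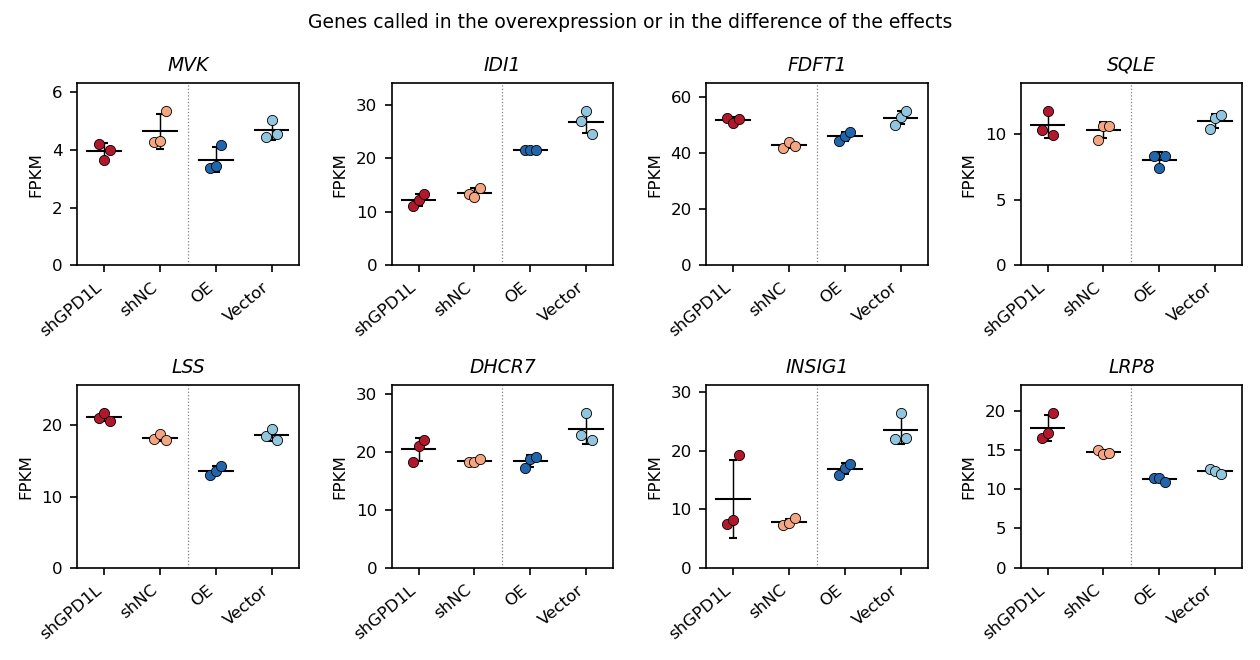
FPKM (vertical axes, starting at 0) of the 8 genes called in the overexpression or in the difference of the effects, by group; points are libraries, horizontal lines are means and bars are SDs (n = 3). The OE points of MVK, IDI1, FDFT1, SQLE, LSS, DHCR7, INSIG1 and LRP8 lie below all Vector points, and shGPD1L replicate 3 of INSIG1, at 19.4 FPKM, lies far above the other libraries of the knockdown table.

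Promoter sequence was available from RefSeq (GRCh38.p14, windows of 300 bases, 250 before and 50 after a gene's start) for 25 of the 28 genes. The windows were searched on both strands for TCACNCCAC, a form of the sterol regulatory element to which SREBP2 binds, for CCAAT, the core of the site of the partner factor NF-Y, and for GGGCGG, the core of the Sp1 site. The sterol element was found in 1 of the 25, SREBF2, against 1.48% of the 9074 genes that were tested in the overexpression and have a window. CCAAT was found in 18 of the 25, against 43.1%, and GGGCGG in 21 of the 25, against 78.7%. Some genes have more than 1 window, and a gene was counted where any of its windows matched. All 5 of the lowered genes with a window, DHCR7, IDI1, INSIG1, LSS and MVK, held both of these cores and none held the sterol element in this form. Another upstream stretch of IDI1, chr10:1056705-1056954 on the minus strand, held the Sp1 core but no CCAAT and is not shown. A match of letters is no evidence of binding. The stretches upstream of the annotated first exon are shown for lowered genes on different steps of the pathway and for SREBF2, 5′ to 3′ on the strand of the gene, with every match in capitals. In LSS, IDI1, INSIG1 and SREBF2 the CCAAT core stands on the other strand and reads ATTGG. The Sp1 core on the other strand reads CCGCCC. In INSIG1 the 2 adjoining Sp1 cores share a base. The stretches are chr21:46228825-46229024 on the minus strand for LSS, chr10:1049171-1049369 on the minus strand for IDI1, chr7:155297628-155297775 on the plus strand for INSIG1 and chr22:41832855-41833078 on the plus strand for SREBF2. The gene SREBF2 shares exonic sequence with SREBF2-AS1 on the other strand.
LSS: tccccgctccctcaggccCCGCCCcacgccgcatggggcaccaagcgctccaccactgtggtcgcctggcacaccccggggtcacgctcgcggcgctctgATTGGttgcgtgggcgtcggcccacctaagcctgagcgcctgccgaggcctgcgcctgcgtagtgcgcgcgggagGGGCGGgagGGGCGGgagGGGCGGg
IDI1: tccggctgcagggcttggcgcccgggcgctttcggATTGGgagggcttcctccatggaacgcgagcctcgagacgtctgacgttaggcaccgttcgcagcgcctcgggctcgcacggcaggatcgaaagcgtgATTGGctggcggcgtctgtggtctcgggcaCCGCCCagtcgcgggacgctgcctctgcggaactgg
INSIG1: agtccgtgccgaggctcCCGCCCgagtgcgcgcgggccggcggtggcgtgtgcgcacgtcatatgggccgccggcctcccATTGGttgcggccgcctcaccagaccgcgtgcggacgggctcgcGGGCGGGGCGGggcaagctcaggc
SREBF2: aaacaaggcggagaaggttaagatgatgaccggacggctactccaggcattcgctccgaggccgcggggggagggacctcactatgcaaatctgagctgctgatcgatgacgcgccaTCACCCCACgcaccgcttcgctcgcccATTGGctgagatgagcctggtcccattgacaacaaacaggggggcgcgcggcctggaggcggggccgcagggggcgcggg

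When GPD1L was lowered, no sterol gene passed the test. Of the 28 genes 0 were called by limma in shGPD1L against shNC, with 5 at an unadjusted p under 0.05, 3 of them higher (6.04% of all genes) and 2 lower (10.3%). Over all 12156 genes tested 0.592% were called, 0.115% higher and 0.477% lower. The higher ones made up 19.4% of the calls, or 29.4% with median-of-ratios scaling and 37% with quantile normalization. The median log2 change of the 28 was 0.04, against -0.04 over all genes, and it was -0.01 without shGPD1L replicate 2 and 0.00 without replicate 3. The groups did not overlap for 4 members that were higher in shGPD1L (9.54% of all genes) and 3 that were lower (15.1%).

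Of the squalene genes, FDFT1 and LSS stood above 0 here with all libraries and without any 1 of them, and SQLE lay near 0. FDFT1 was at 52.6, 50.7 and 52.2 FPKM in shGPD1L libraries, against 42.0, 43.9 and 42.7 FPKM in shNC libraries. The groups were well apart (log2 change 0.27, SE 0.070), yet the adjusted p was 0.143; without shGPD1L replicate 3 it was 0.0496, and FDFT1 was then the 1 member called, against 1.8% of all genes called higher and 3.21% lower. LSS was at 21.0, 21.7 and 20.6 FPKM in shGPD1L libraries and at 18.0, 18.8 and 18.0 FPKM in shNC libraries, without overlap (log2 change 0.20, SE 0.073, adjusted p = 0.244). SQLE was at 10.3, 11.7 and 9.87 FPKM in shGPD1L libraries and at 9.55, 10.6 and 10.6 FPKM in shNC libraries, which overlap (log2 change 0.05, adjusted p = 0.849; -0.022 without shGPD1L replicate 2).

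Of the early and isoprenoid genes, MVK was at 4.21, 3.64 and 3.98 FPKM in shGPD1L libraries and at 4.26, 4.32 and 5.35 FPKM in shNC libraries. Its shGPD1L values were all lower, as its OE values were against Vector (log2 change -0.19, adjusted p = 0.44). IDI1 was at 11.1, 12.3 and 13.3 FPKM in shGPD1L libraries and at 13.2, 12.8 and 14.5 FPKM in shNC libraries, which overlap (log2 change -0.13, adjusted p = 0.523). PMVK was at 15.9, 19.9 and 13.1 FPKM in shGPD1L libraries and at 15.5, 13.7 and 16.2 FPKM in shNC libraries, and FDPS at 89.3, 104 and 78.1 FPKM in shGPD1L libraries and at 93.8, 78.9 and 89.5 FPKM in shNC libraries. In both, shGPD1L replicate 2 was the highest and replicate 3 the lowest of the 6 libraries.

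Of the late genes, DHCR7 was at 18.2, 20.9 and 22.1 FPKM in shGPD1L libraries and at 18.2, 18.2 and 18.8 FPKM in shNC libraries (log2 change 0.14, adjusted p = 0.491). TM7SF2 was at 27.2, 25.9 and 23.9 FPKM in shGPD1L libraries and at 27.0, 35.3 and 32.6 FPKM in shNC libraries, where the lowest shNC library lay inside the shGPD1L range (log2 change -0.29, SE 0.11, adjusted p = 0.266). TM7SF2 shares exonic sequence with VPS51 on the same strand, whose log2 change was -0.01. EBP, the sterol isomerase gene, was at 25.4, 28.05 and 16.6 FPKM in shGPD1L libraries and at 25.5, 25.9 and 29.3 FPKM in shNC libraries, so that replicate 3 alone was low.

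Among the uptake and storage genes, SOAT1 was at 3.67, 3.95 and 3.60 FPKM in shGPD1L libraries, against 4.98, 4.85 and 5.25 FPKM in shNC libraries. The groups were separate and it had the smallest unadjusted p of the 28, but it was not called (log2 change -0.35, SE 0.088, adjusted p = 0.139). LRP8 was at 16.5, 17.1 and 19.7 FPKM in shGPD1L libraries and at 15.0, 14.4 and 14.6 FPKM in shNC libraries, also separate and not called (log2 change 0.25, SE 0.088, adjusted p = 0.225).

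The library shGPD1L replicate 3 carried the largest single deviations of the sterol genes. INSIG1 was at 7.49, 8.16 and 19.4 FPKM in shGPD1L libraries, against 7.32, 7.67 and 8.46 FPKM in shNC libraries. Its log2 change of 0.41 (SE 0.30, adjusted p = 0.538) became 0.00 without replicate 3. STARD4 was at 3.35, 4.07 and 6.39 FPKM in shGPD1L libraries and at 3.17, 3.12 and 3.38 FPKM in shNC libraries, and SREBF2 at 16.1, 13.7 and 23.2 FPKM in shGPD1L libraries and at 15.7, 16.2 and 14.1 FPKM in shNC libraries. Their log2 changes of 0.37 and 0.16 were 0.15 and -0.04 without replicate 3. SCAP was at 27.5, 24.4 and 24.2 FPKM in shGPD1L libraries and at 24.9, 23.3 and 24.4 FPKM in shNC libraries, with no such deviation. This library was the highest of its table for 8 members (21.8% of all genes), DHCR7, GGPS1, HMGCS1, INSIG1, LRP8, MBTPS1, SREBF2 and STARD4, and the lowest for 9 (36.7%), so members went both ways in it. Transcripts of the mitochondrial genome took 16.3% to 21.4% of the listed FPKM in shGPD1L libraries and 18.8% to 22.0% in shNC libraries. The summed immune list was at 20.0 to 28.7 FPKM in shGPD1L libraries and 27.8 to 32.0 FPKM in shNC libraries, nearly all of it CD68, and the summed epithelial list, with 7 of 8 genes listed, was at 4203 to 4482 FPKM in shGPD1L libraries and 5065 to 5427 FPKM in shNC libraries. Of its 7 genes KRT8, KRT18, KRT19 and EPCAM were lower in shGPD1L without overlap, and CDH1, CDX2 and VIL1 overlapped. Their part in these values was not tested.

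**Figure D2:**
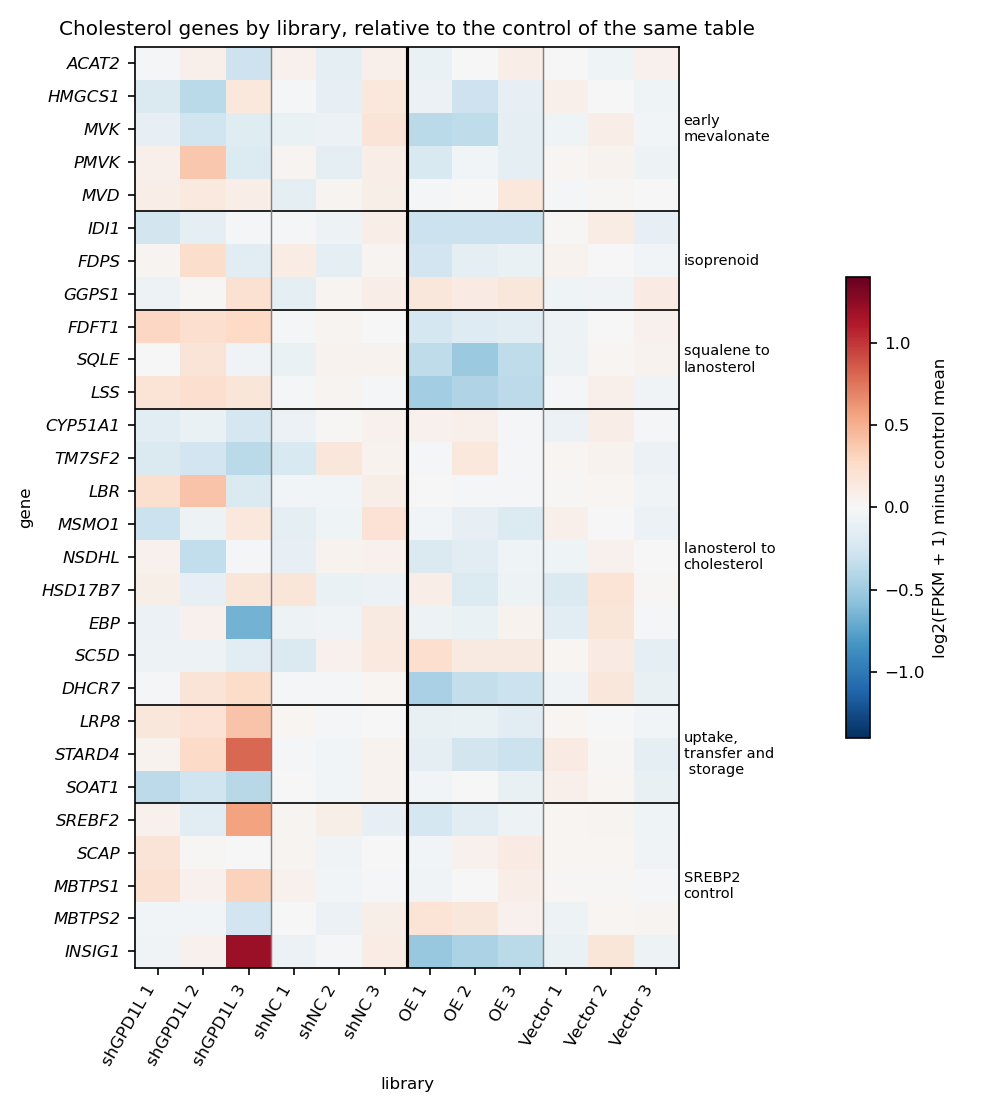
Difference of log2(FPKM + 1) of each of the 28 genes (rows, in pathway order) in each library (columns) from the mean of the control libraries of the same table, shNC for the left block of the map and Vector for the right. Red is higher and blue lower; the OE columns are blue at LSS, SQLE, IDI1, DHCR7 and INSIG1, and shGPD1L replicate 3 is red at INSIG1, STARD4 and SREBF2 and blue at EBP.

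The 2 perturbations were compared directly by taking the knockdown effect (shGPD1L minus shNC) from the overexpression effect (OE minus Vector), in a limma fit over all 12 libraries and the 11208 genes tested in both tables. The comparisons share no control libraries. Of the 28 genes 5 were called lower (5% of all genes) and 0 higher (9.14%). They were all 3 squalene genes, DHCR7 and the receptor gene LRP8. LSS had the largest called difference, -0.62 (SE 0.084, adjusted p = 0.00135), made up of -0.42 in the overexpression and 0.20 in the knockdown. FDFT1 had a difference of -0.46 (SE 0.078, adjusted p = 0.00441), SQLE of -0.46 (SE 0.11, adjusted p = 0.0218), DHCR7 of -0.50 (SE 0.12, adjusted p = 0.0202) and LRP8 of -0.37 (SE 0.096, adjusted p = 0.0268). For each of the 5 all 3 OE libraries lay below all Vector libraries, while the shGPD1L libraries lay above all shNC libraries for FDFT1, LSS and LRP8 and overlapped them for SQLE and DHCR7. LSS and FDFT1 were called in all 22 alternatives. SQLE was lost without shNC replicate 1, Vector replicate 2 or 3 or OE replicate 2 (adjusted p-values from 0.0517 to 0.0576), and DHCR7 without Vector replicate 2 (0.0508) or OE replicate 1 (0.0572). LRP8 was lost with a block for the replicate number (0.0509) and without shNC replicate 2 or 3, Vector replicate 1 or 2 or any 1 OE library (0.0524 to 0.0648).

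INSIG1 had the largest difference in size, -0.86, with the largest error (SE 0.35, adjusted p = 0.118). Without shGPD1L replicate 3 it was -0.46 and called (adjusted p = 0.0189), and STARD4 (-0.39, adjusted p = 0.0473) and LBR (-0.34, adjusted p = 0.0143) were called as well (STARD4 also without shGPD1L replicate 1, adjusted p = 0.0243), so that 8 members were lower in place of 5, against 9.15% of all genes called lower. LBR, which encodes both a sterol reductase and the lamin B receptor of the nuclear envelope, was at 38.2, 43.1 and 28.04 FPKM in shGPD1L libraries and at 31.5, 31.6 and 34.3 FPKM in shNC libraries, against 43.3, 42.6 and 42.5 FPKM in OE libraries and 44.1, 44.3 and 42.1 FPKM in Vector libraries. Without Vector replicate 2 the members called lower numbered 2, and without OE replicate 1 or 2 it was 3. The calls over all genes also dropped, from 1584 to 844 without Vector replicate 2. They were 790 without OE replicate 1 and 940 without OE replicate 2. The genes MVK and IDI1, lowered in the overexpression, had differences of -0.10 (SE 0.14, adjusted p = 0.668) and -0.16 (SE 0.11, adjusted p = 0.353), their values being below 0 in both comparisons. PMVK (-0.21, adjusted p = 0.426), FDPS (-0.20, adjusted p = 0.347), SREBF2 (-0.31, adjusted p = 0.312), SCAP (-0.02, adjusted p = 0.902) and TM7SF2 (0.32, adjusted p = 0.129) were not called. Without shNC replicate 1 TM7SF2 was called higher, at 0.43 (adjusted p = 0.04). Of all called genes 64.6% were higher in this difference, or 45.6% with median-of-ratios scaling and 49.9% with quantile normalization, and 5 members were called lower under each of these.

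**Figure D3:**
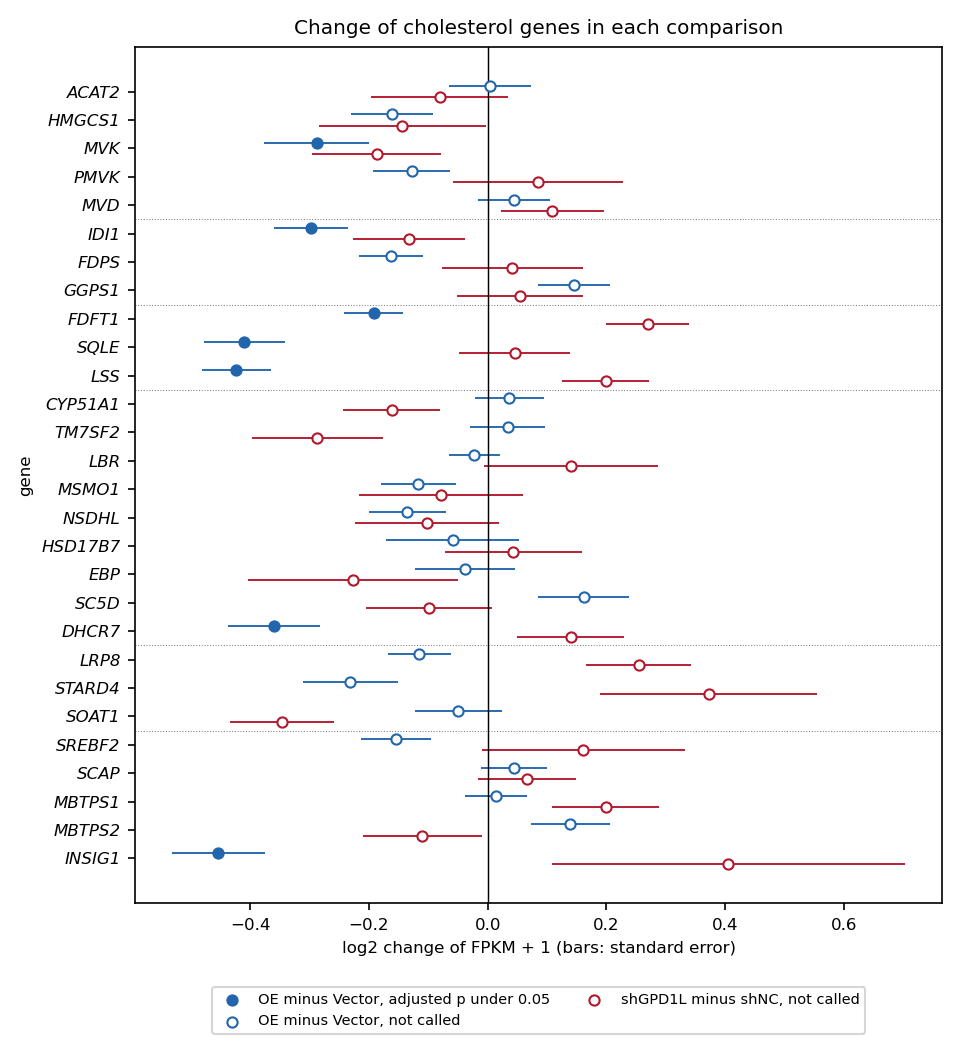
Log2 change of FPKM + 1 (horizontal axis; bars are standard errors) of the 28 genes in pathway order, for OE minus Vector (blue) and shGPD1L minus shNC (red); filled points have an adjusted p under 0.05. The 7 filled points, MVK, IDI1, FDFT1, SQLE, LSS, DHCR7 and INSIG1, all belong to the overexpression and lie between -0.45 and -0.19.

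The control lines stood at different levels of several sterol genes. Whether both tables were normalized together is not stated, and these levels are a description with no test. All Vector libraries lay above all shNC libraries for 14 of the 28 genes (27.2% of 11208 genes) and below them for 5 (29.7%). The median log2 difference was 0.18 over the 28 and -0.01 over all genes. Over 1.5 times higher in mean FPKM, without overlap, were 6 of the 28 (6.96% of all genes), which were INSIG1, STARD4, IDI1, GGPS1, SREBF2 and the sterol methyl oxidase gene MSMO1. INSIG1 averaged 23.6 ± 2.49 FPKM in Vector and 7.82 ± 0.59 FPKM in shNC, and STARD4 10.7 ± 1.04 FPKM in Vector and 3.22 ± 0.14 FPKM in shNC (SD, n = 3 each). SREBF2 averaged 27.7 ± 1.12 FPKM in Vector and 15.3 ± 1.11 FPKM in shNC, and IDI1 26.8 ± 2.14 FPKM in Vector and 13.5 ± 0.87 FPKM in shNC (SD, n = 3 each). The OE libraries, although below the Vector libraries for INSIG1, STARD4, IDI1 and SREBF2, were above every shNC library for these 4 genes. Of the squalene genes, FDFT1 averaged 52.7 ± 2.44 FPKM in Vector and 42.9 ± 0.93 FPKM in shNC, also without overlap (SD, n = 3 each). LSS averaged 18.6 ± 0.85 FPKM in Vector and 18.3 ± 0.45 FPKM in shNC, and SQLE 11.0 ± 0.54 FPKM in Vector and 10.2 ± 0.60 FPKM in shNC (SD, n = 3 each).

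**Figure D4:**
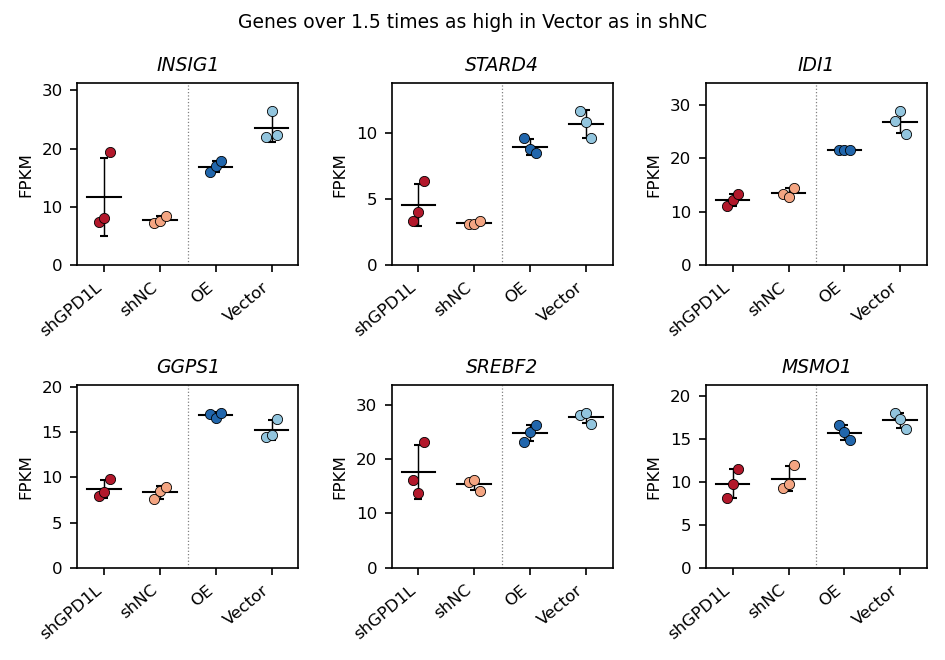
FPKM (vertical axes, starting at 0) of the 6 genes whose mean was over 1.5 times as high in Vector as in shNC, in all 4 groups; points are libraries, lines means and bars SDs (n = 3). The dotted line divides the tables, which may have been normalized separately, and the OE points lie above the shNC points in each panel.

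By mean FPKM the 28 genes ranged in the Vector libraries from MVK, at 4.68 ± 0.33 FPKM, to FDPS, at 99.8 ± 3.36 FPKM, followed by FDFT1 (52.7 ± 2.44 FPKM) and LBR (43.5 ± 1.23 FPKM; SD, n = 3 each). The range in the shNC libraries ran from STARD4, at 3.22 ± 0.14 FPKM, to FDPS, at 87.4 ± 7.64 FPKM (SD, n = 3 each), and FDFT1 again came after FDPS.

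Genes of neighbouring sterol pathways were called at about the rate of all genes. Of 46 tested in the overexpression 6 were higher (12.2% of all genes) and 5 lower (10.3%), together 23.9% of them against 22.4% of all genes, so nothing is read from these counts and single genes are given as values. In the knockdown 0 of the genes in these 6 lists were called by limma, with 2 of 13 isoprenoid branch genes, 2 of 9 genes of lysosomal release and transfer, 1 of 6 efflux genes, 0 of 8 degradation genes, 1 of 4 acetyl-CoA genes and 2 of 7 fatty acid genes at an unadjusted p under 0.05 (16.3% of all genes). In the overexpression, 1 of 13 isoprenoid branch genes rose and 1 fell, RABGGTB, a subunit of the enzyme that attaches geranylgeranyl to Rab proteins (log2 change 0.17, adjusted p = 0.04995, lost in 13 of 16 alternatives), and ICMT, which methylates prenylated proteins (-0.26, adjusted p = 0.00412). Of 8 tested genes of lysosomal release and sterol transfer 2 rose, NPC1, which exports cholesterol from the lysosome (0.24, adjusted p = 0.0161), and OSBPL9, a lipid transfer protein gene (0.20, adjusted p = 0.0253), and 0 fell. Of 6 efflux and liver X receptor genes 1 rose and 2 fell. They were the receptor genes NR1H2 (0.28, adjusted p = 0.0099) and NR1H3 (-0.20, adjusted p = 0.0203) and the phospholipid acyltransferase gene LPCAT3 (-0.31, adjusted p = 0.0139). Of 4 acetyl-CoA supply genes ACAT1, the mitochondrial thiolase gene, fell (-0.16, adjusted p = 0.0313). The calls of OSBPL9, NPC1, NR1H3 and ACAT1 ended in 6, 2, 3 and 8 of 16 alternatives, and those of ICMT, NR1H2 and LPCAT3 in 0. Of 7 fatty acid genes that SREBP factors control, the desaturase gene SCD fell (-0.30, adjusted p = 0.00489) and the desaturase gene FADS2 rose (0.33, adjusted p = 0.0129).

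SCD averaged 75.0 ± 2.87 FPKM in OE and 92.3 ± 3.69 FPKM in Vector, and 41.6 ± 7.73 FPKM in shGPD1L and 31.6 ± 1.68 FPKM in shNC (SD, n = 3 each). Its difference of effects was -0.67 (SE 0.14, adjusted p = 0.0116), of the sign of the squalene genes, and that of FADS2 was 0.68 (SE 0.13, adjusted p = 0.0077). In this difference 6 of the 46 neighbouring genes were called higher (9.14% of all genes) and 2 lower (5%), together 17.4% of them against 14.1% of all genes. Beside SCD and FADS2 they include ZMPSTE24, a protease of prenylated proteins (0.62, adjusted p = 0.00562), the farnesyltransferase subunit gene FNTA (0.33, adjusted p = 0.0403), OSBPL9 (0.25, adjusted p = 0.045), the acetyl-CoA synthetase gene ACSS2 (0.41, adjusted p = 0.0344) and the sterol exporter gene ABCG1 (-0.37, adjusted p = 0.0239). The calls of FNTA, OSBPL9, ACSS2 and ABCG1 ended in 11, 14, 11 and 4 of 22 alternatives, and those of SCD, FADS2 and ZMPSTE24 in 0.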

How the data were processed

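Poly(A) RNA sequencing of 12 SW480 libraries was used, in 4 groups of 3 named by the library titles. In the genotype labels the digit in GPD1L grows with the replicate number; it was taken for a numbering slip. The authors deposited 2 tables of FPKM, 1 per comparison. Per the submitters' processing notes, HISAT2, StringTie and DESeq2 were used with the build GRCh38; their roles and versions, the annotation and any filter were not given in the sources used here. Reads per library cannot be had from FPKM, so depth is unknown and no counting error is given. No step that keeps strand is described in the labels' protocols, so overlapping antisense reads may be mixed. CYP51A1 shares exonic sequence with AC000120.3, and MBTPS2 with YY2, each on the same strand. HMGCS1, IDI1, FDPS, FDFT1, LSS, LRP8 and STARD4 share exonic sequence with genes on the other strand that were not listed.

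Within each table, genes whose mean over its libraries reached 1 FPKM were fitted on the scale log2(FPKM + 1) by limma 3.58.1 in R 4.3.3 with an intensity trend and Benjamini-Hochberg adjustment. For the difference of effects 1 fit took in 12 libraries and a mean for each group. The fits were tested on simulated data with 200 changed genes. Positions and overlaps come from GENCODE release 29 on GRCh38, promoters from RefSeq GRCh38.p14; in 27 of 32 windows the last 30 bases stood in a transcript of the gene. Values in every library are given for members called in the knockdown, the overexpression or their difference with these settings, for the largest change of each step in each comparison, and for INSIG1, SREBF2 and SCAP; SOAT1, EBP, LBR and GGPS1 were added after their values were seen. From each neighbouring list up to 2 called genes per direction are named; 1 result is not reported here. The members, lists and tests were chosen with earlier results of these data known. Alternatives were pseudocounts of 0.1 and 0.5, no filter or one at 5 FPKM, 3 scalings, other eBayes settings, a replicate block and leaving out each library. Python 3.11.15 and matplotlib 3.10.9 made the figures.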

Additional observations from a re-analysis of the deposited data

Results flagged for a closer look

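The effects of the perturbations differed for 5 of the 28 genes by the test of the difference itself, the overexpression effect minus the knockdown effect, in the limma fit over 12 libraries. All 5 were called lower. Over all 11208 genes tested 14.1% were called, 5% lower and 9.14% higher. The differences were -0.62 log2 units for LSS, -0.50 for DHCR7, -0.46 for FDFT1, -0.46 for SQLE and -0.37 for LRP8. For LSS, FDFT1, SQLE, DHCR7 and LRP8 the overexpression value was below 0 and the knockdown value above 0, but none of the 5 knockdown values was called, and that of SQLE was -0.022 without shGPD1L replicate 2.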

How the results depend on the processing

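Of the 28 genes, none of those called changed direction in any alternative. In the overexpression the number of members called lower lay between 5 and 9 over the 16 alternatives, and between 5 and 7 without any 1 library. With library totals set equal 1 member was called higher there in place of 0, and the member median was -0.068 in place of -0.12. In the knockdown, leaving out 1 library gave 0 to 1 members called higher and medians from -0.0054 to 0.064; GPD1L had log2 changes from -2.32 to -1.74 over all its alternatives and from -1.996 to -1.74 without any 1 library, and its call ended without shNC replicate 1 (-1.85), 2 (-1.90) or 3 (-1.82). In the difference of effects, leaving out 1 library gave 0 to 1 members called higher and 2 to 8 called lower.

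Deviations of same-numbered libraries correlated at -0.18 to -0.02 in the knockdown and -0.06 to 0.02 in the overexpression. Those of differently numbered libraries correlated at -0.07 to 0.25 and at -0.03 to 0.07. With 3 libraries per group these values show no pairing by replicate number but cannot exclude it. With the replicate number as a block, 0 members were called in the knockdown, 6 lower in the overexpression (MVK was lost, at an adjusted p of 0.0788) and 4 lower in the difference. Over all genes the block left 3 calls of 72 in the knockdown, and quantile normalization left 27. The block left 2021 calls of 2740 in the overexpression, 51.9% of them higher, and 1210 of 1584 in the difference, 63.7% of them higher. Leaving out 1 library gave 0 to 609 calls in the knockdown, with 0 without shNC replicate 2 or 3 (unadjusted limma p under 0.05 in 1408 and 1126 genes), 1 without shNC replicate 1, 8 without shGPD1L replicate 1, 7 without shGPD1L replicate 2 and 609 without shGPD1L replicate 3. It gave 1550 to 1980 calls in the overexpression, against 2740 with all libraries, and 790 to 2572 in the difference, against 1584.

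Values of uncalled members near 0 changed sign. In the overexpression, equal library totals gave 0.028 for LBR and 0.011 for EBP, median-of-ratios scaling -0.014 for ACAT2 and -0.0053 for MBTPS1, and quantile normalization -0.022 for ACAT2 and -0.0055 for MBTPS1. In the difference, equal library totals gave 0.017 for HMGCS1 and 0.013 for SCAP. Leaving out 1 library gave, in the overexpression, -0.042 to 0.049 for ACAT2, -0.0029 to 0.084 for CYP51A1, -0.11 to 0.049 for EBP, -0.16 to 0.035 for HSD17B7, -0.025 to 0.047 for MBTPS1, -0.0054 to 0.074 for MVD and -0.025 to 0.064 for TM7SF2. In the knockdown it gave -0.16 to 0.022 for ACAT2, -0.062 to 0.14 for FDPS, -0.028 to 0.12 for GGPS1, -0.018 to 0.13 for HSD17B7, -0.19 to 0.036 for MSMO1, -0.18 to 0.020 for NSDHL, -0.059 to 0.22 for PMVK, -0.022 to 0.092 for SQLE and -0.042 to 0.32 for SREBF2. In the difference it gave -0.018 to 0.16 for ACAT2, -0.029 to 0.33 for EBP, -0.13 to 0.13 for HMGCS1, -0.15 to 0.072 for MSMO1, -0.16 to 0.048 for NSDHL and -0.057 to 0.036 for SCAP. The cause of these changes was not tested.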
